A study of Mus musculus with 12 samples.

Results

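The JAK, STAT and SOCS genes described here are 10 of the 45777 genes in an RNA-seq table of mouse CD4+ T cells. They were chosen by gene symbol and cover 3 Janus kinases (Jak1, Jak2, Jak3), 3 transcription factors (Stat3, Stat5a, Stat5b) and 4 inhibitors of the suppressor of cytokine signaling family (Socs1, Socs2, Socs3, Cish). All 10 had reads in every library and were tested. The study asked how Lactobacillus acidophilus, a probiotic bacterium, and FK506 (tacrolimus, a calcineurin inhibitor used against transplant rejection) act on T cells, alone and together. Splenic CD4+ T cells were stimulated for 3 days with 0.5 ug/mL anti-CD3, an antibody that activates the T-cell receptor, and this stimulus was shared by all groups. The 4 groups, of 3 libraries each, received no further agent (anti-CD3 alone), L. acidophilus, FK506, or both agents (the combination). Per the labels the cells came from wild type Balb/c mice aged 7 weeks, whereas the methods name another strain and age. The doses of L. acidophilus and FK506 are not given for the sequenced cultures. No source says that the libraries came from separate animals, so p-values measure the spread between these libraries, which may be technical.

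Total counts ranged from 45416397 to 64658165 per library, and the 4 libraries of replicate 1 were the deepest. The CD4+ T-cell label was checked against 6 markers (Cd3d, Cd3e, Cd3g, Cd4, Cd5, Lck), whose summed level was given in FPKM (fragment counts adjusted for transcript length and library size). It was 1084 to 1638 for anti-CD3 alone, 1193 to 1337 for L. acidophilus, 1074 to 1205 for FK506 and 1521 to 1795 for the combination, whose libraries were above those of FK506 and L. acidophilus. Markers of other cells were present and also moved with the groups. The 10 B-cell markers summed to 41.1 to 66.7 FPKM with anti-CD3 alone, 27.7 to 39.6 in the L. acidophilus libraries, 245 to 488 with FK506 and 140 to 166 with the combination, and none was at 0 in any library. The 8 myeloid markers summed to 0.225 to 0.43 FPKM in the anti-CD3 libraries, 0.198 to 0.996 in those with L. acidophilus, 1.10 to 7.81 in those with FK506 and 22.3 to 47.5 in the combination, with 1 to 4 of them at 0 per library. The 2 CD8 T-cell markers summed to 2.21 to 5.135 FPKM (anti-CD3), 3.34 to 6.29 (L. acidophilus), 4.63 to 9.02 (FK506) and 4.34 to 5.01 (combination). In the same order, the 3 natural killer cell markers summed to 0 to 0.03, 0 to 0.039, 0.024 to 0.266 and 0.19 to 1.195. The part of these cells in the results below was not tested. In bulk RNA, fewer cells of a type and less RNA per cell cannot be told apart.

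Cytokine receptors of this pathway have no enzyme activity of their own and rely on Janus kinases bound to their tails. Ligand binding brings the kinases together, they phosphorylate the receptor, and STAT proteins dock there, are phosphorylated, pair and enter the nucleus. In T cells, IL-2 and related cytokines signal through JAK1 and JAK3 to STAT5, and IL-6 and IL-21 signal mainly to STAT3. CISH and the SOCS proteins are feedback inhibitors, and several of their genes are themselves switched on by STATs.

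STAT dimers bind a palindrome written TTCNNNGAA, which reads the same on both strands. It was searched for in the RefSeq promoters (GRCm38.p6, 250 bases before to 50 after each listed start), which were found for 9 of the 10 genes, Socs2 being the one unmatched. Of these 9, the letters were found in the promoters of Cish and Socs3, and 8.30% of 32851 promoters of that length hold at least 1 match. The matched stretches are shown because these inhibitor genes are described below among those that fell, with the matches in capitals.
Cish, chr9:107296656-107296681, plus strand: gttTTCCTGGAAagTTCTTGGAAatc
Socs3, chr11:117969509-117969523, minus strand: gccTTCTTAGAAggg
The Cish stretch holds 2 matches, the first beginning at the listed start, and 0.457% of promoters hold 2 or more. The Socs3 match begins 154 bases before the listed start, within the span of the longest annotated form of the gene. A match is a description of letters, not of binding, and the same search gave 0 matches for Jak1, Jak2, Jak3, Stat3, Stat5a, Stat5b and Socs1.

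Against anti-CD3 alone, the combination raised Jak1 and lowered Jak2, Jak3, Stat5a, Socs1, Socs3 and Cish, while Stat3, Stat5b and Socs2 did not pass the test. The largest changes were those of Jak2 (4.31-fold lower) and Socs3 (3.64-fold lower). The test was edgeR's quasi-likelihood test on counts over all 23585 genes with reads in at least 3 libraries, and a gene passed at a Benjamini-Hochberg adjusted p under 0.05. So 7 of 10 members passed, where 43.3% of all genes tested passed. Among the 6380 genes with a mean of at least 10 FPKM, the range in which every member lies, 62.5% passed, so the count of members is near this background. The median log2 fold change was -0.78 over the members and -0.26 over those 6380 genes.

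**Figure D1:**
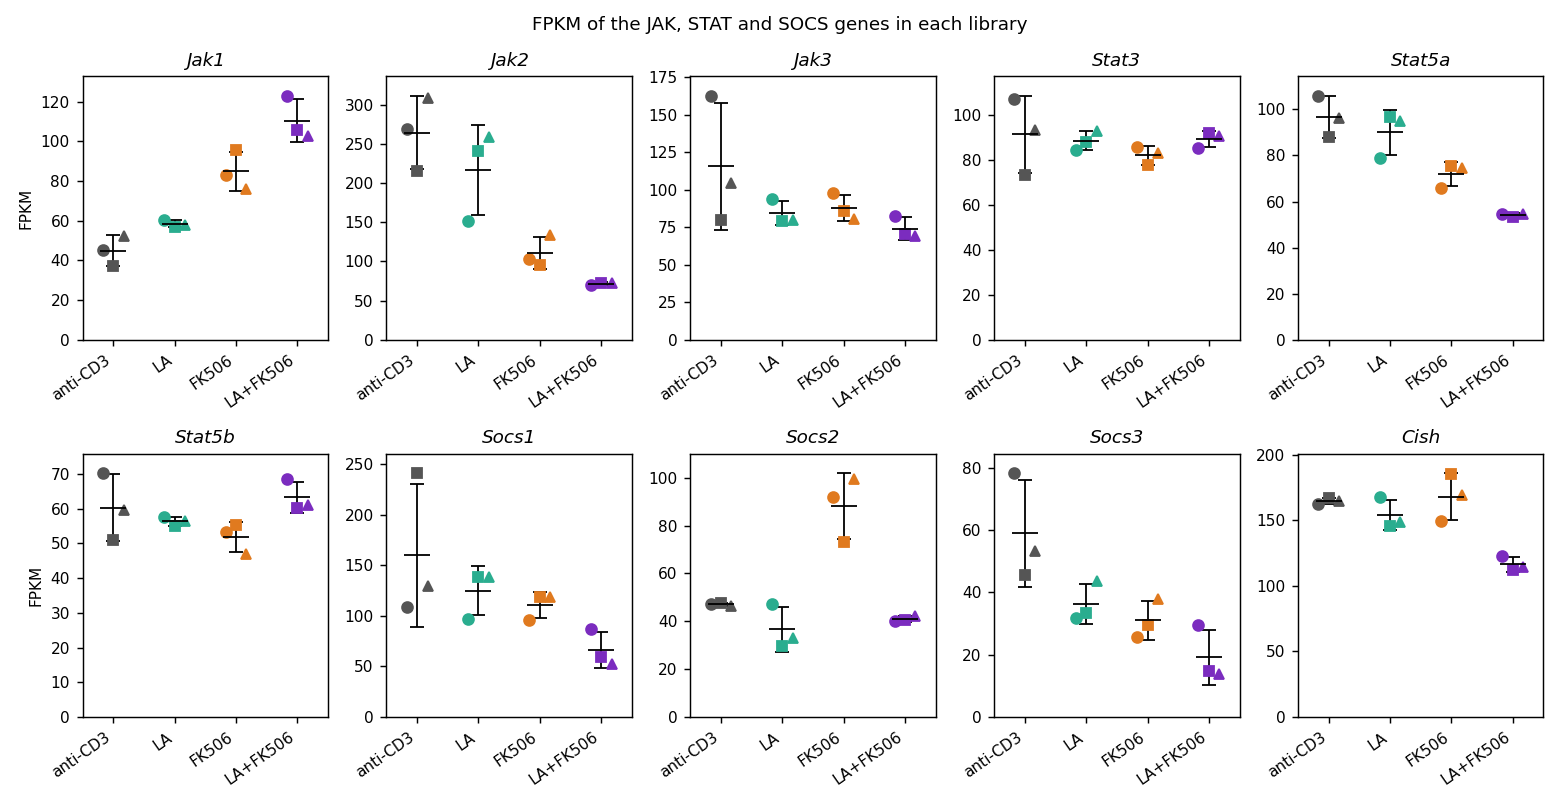
FPKM of each of the 10 genes (vertical axes, each starting at 0) in the 12 libraries by group, with circles, squares and triangles for replicates 1, 2 and 3 and black bars for the mean ± SD of 3 libraries; LA is L. acidophilus. Jak1 goes from 44.9 with anti-CD3 alone to 110.4 with LA+FK506 while Jak2 goes from 265 to 71.8, and Socs2 stands highest with FK506 at 88.2.

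Jak1, which serves most cytokine receptors of the class and lies on chromosome 4 (GRCm38.p6, 101151974 to 101265282), was the one member that rose with the combination. Its FPKM was 45.1, 37.2 and 52.5 in replicates 1 to 3 with anti-CD3 alone, 60.4, 57.0 and 57.8 with L. acidophilus, 82.8, 95.5 and 76.2 with FK506, and 123, 106 and 103 with the combination. The 4 groups did not overlap and stood in that order. Its log2 fold change was 1.09 (SE 0.13, adjusted p = 5.02e-05, edgeR) in the combination against anti-CD3 and 0.79 (SE 0.13, adjusted p = 0.00154) with FK506. With L. acidophilus alone it was 0.29 (SE 0.13, adjusted p = 0.305), which did not pass.

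Jak2, the kinase of receptors such as those for interferon gamma, IL-12 and growth hormone, moved the other way. It lies on chromosome 19 (29251803 to 29313095). Its FPKM was 269, 216 and 309 with anti-CD3 alone, 151, 241 and 259 with L. acidophilus, 103, 94.9 and 134 with FK506, and 69.6, 72.7 and 73.0 with the combination. The first 2 groups overlapped, every FK506 library was below them, and every combination library was lower still. The log2 fold change against anti-CD3 was -2.11 (SE 0.21, adjusted p = 2.06e-05, edgeR) with the combination and -1.36 (SE 0.20, adjusted p = 0.00113) with FK506. The combination was also below L. acidophilus, by -1.75 on the log2 scale (SE 0.21, adjusted p = 0.000118). Against FK506 it was lower by -0.75 (SE 0.20, adjusted p = 0.0239). This last call was lost without FK506 replicate 3 or any one of the 3 combination libraries, with an adjusted p of up to 0.108.

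Jak3, which binds only the common gamma chain of the receptors for IL-2 and its relatives, fell with the combination. It lies on chromosome 8 (71676383 to 71690577). Its FPKM was 163, 79.8 and 105 with anti-CD3 alone, 93.8, 79.4 and 80.0 with L. acidophilus, 97.8, 85.7 and 80.4 with FK506, and 82.7, 70.7 and 69.1 with the combination. All groups overlapped with anti-CD3 in FPKM, where replicate 1 was far above replicate 2. The log2 fold change of the combination was -0.85 (SE 0.21, adjusted p = 0.00738, edgeR), a call that depended on the scaling given below. It was -0.49 without anti-CD3 replicate 1. Neither single treatment passed, at -0.52 (SE 0.21, adjusted p = 0.115) for FK506 and -0.54 (SE 0.21, adjusted p = 0.269) for L. acidophilus.

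The 3 STAT genes adjoin on chromosome 11 in the order Stat5b (100780731 to 100859004), Stat5a (100859351 to 100885169) and Stat3 (100886806 to 100939594), and they did not move alike. Stat5a, one of the closely related STAT5 factors downstream of IL-2, was the member of the trio that changed. Its FPKM was 106, 87.9 and 96.4 with anti-CD3 alone, 78.9, 96.6 and 95.0 with L. acidophilus, 66.0, 75.3 and 74.4 with FK506, and 54.7, 53.1 and 54.4 with the combination. The combination libraries lay within 2 FPKM of each other and below all others, and the FK506 libraries were below both remaining groups. The log2 fold change against anti-CD3 was -1.04 (SE 0.12, adjusted p = 3.67e-05, edgeR) with the combination and -0.54 (SE 0.11, adjusted p = 0.00718) with FK506. The combination was lower than FK506 by -0.50 (SE 0.11, adjusted p = 0.0103) and lower than L. acidophilus by -0.86 (SE 0.11, adjusted p = 0.000224). On quantile-normalized FPKM the calls for FK506 against anti-CD3 (adjusted p = 0.0906, limma) and for the combination against FK506 (adjusted p = 0.123, limma) were lost.

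Stat5b, the near copy of Stat5a, did not pass in any comparison by the main test. Its FPKM was 70.1, 50.9 and 59.6 with anti-CD3 alone, 57.7, 54.9 and 56.3 with L. acidophilus, 53.3, 55.2 and 47.0 with FK506, and 68.5, 60.2 and 61.0 with the combination. The combination libraries stood above those with FK506 and with L. acidophilus and within the anti-CD3 range. The difference from FK506 was 0.23 (SE 0.13, adjusted p = 0.242, edgeR), and it passed on quantile-normalized FPKM with a pseudocount of 0.1 (0.42, adjusted p = 0.049, limma). Between the combination and anti-CD3 the log2 fold change was -0.10 (SE 0.13, adjusted p = 0.56, edgeR), and its sign turned to 0.10 when library totals alone set the scale. Of the 50-base stretches of the annotated Stat5a transcripts 14.7% also occur in Stat5b, and 11.1% the other way, so reads from these stretches could be assigned to either gene. No other pair of members shared such a stretch.

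Stat3, the main factor downstream of IL-6 and IL-21, was also among those that did not pass in any comparison. Its FPKM was 107, 73.5 and 93.5 with anti-CD3 alone, 84.5, 88.1 and 92.9 with L. acidophilus, 85.7, 77.6 and 83.0 with FK506, and 85.3, 91.9 and 90.9 with the combination. The libraries of the other groups all lay within the range of the anti-CD3 libraries. The combination gave a log2 fold change of -0.24 (SE 0.12, adjusted p = 0.137, edgeR) against anti-CD3, which became 0.22 on quantile-normalized FPKM. Without anti-CD3 replicate 2 it was -0.36 and passed (adjusted p = 0.0168).

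The inhibitors Socs1, Socs3 and Cish fell with the combination, while Socs2 did not pass the test. Socs1, which binds and blocks the kinases and restrains interferon gamma signaling, lies on chromosome 16 (10783808 to 10785536). Its FPKM was 109, 241 and 129 with anti-CD3 alone, 97.3, 139 and 139 with L. acidophilus, 96.3, 118 and 119 with FK506, and 86.9, 59.5 and 52.4 with the combination. Every combination library was below every other library, while the remaining groups overlapped. The log2 fold change against anti-CD3 was -1.45 (SE 0.30, adjusted p = 0.00195, edgeR), and -1.0 without anti-CD3 replicate 2, the highest library. The difference from L. acidophilus was -1.02 (SE 0.29, adjusted p = 0.019). The difference from FK506 was -0.82 (SE 0.29, adjusted p = 0.0714), which did not pass here. It passed with DESeq2 (adjusted p = 0.0297), when just the libraries compared were fitted in edgeR (adjusted p = 0.0228), with replicates 2 and 3 only (adjusted p = 0.0267), and without anti-CD3 replicate 2 or combination replicate 1.

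Socs3, which inhibits signaling through the shared IL-6 receptor chain, lies on chromosome 11 (117966079 to 117970336) and had the lowest mean level of the 10 genes in the combination. Its FPKM was 78.2, 45.4 and 53.3 with anti-CD3 alone, 31.6, 33.3 and 43.6 with L. acidophilus, 25.7, 29.4 and 37.9 with FK506, and 29.4, 14.6 and 13.7 with the combination. Each treated library was below all anti-CD3 libraries, and combination replicate 1 lay within the FK506 range. The log2 fold change against anti-CD3 was -1.86 (SE 0.32, adjusted p = 0.000694, edgeR) with the combination and -1.09 (SE 0.32, adjusted p = 0.0324) with FK506. With L. acidophilus alone it was -0.79 (SE 0.32, adjusted p = 0.27). The FK506 call was lost without anti-CD3 replicate 1, FK506 replicate 1 or FK506 replicate 2 (highest adjusted p = 0.112).

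Cish, which competes with STAT5 for its docking sites, lies on chromosome 9 (107296659 to 107302784) and had the highest mean level of the 10 in the combination. Its FPKM was 163, 167 and 165 with anti-CD3 alone, 168, 146 and 149 with L. acidophilus, 149.5, 185 and 169.8 with FK506, and 123, 112 and 114 with the combination. The combination libraries stood below the other 3 groups, which overlapped. The combination differed by -0.71 on the log2 scale from anti-CD3 (SE 0.11, adjusted p = 0.000287, edgeR) and by -0.62 from FK506 (SE 0.11, adjusted p = 0.00269). On quantile-normalized FPKM the difference from anti-CD3 was -0.21 and no longer passed (adjusted p = 0.167, limma). FK506 differed from anti-CD3 by -0.09 (SE 0.11, adjusted p = 0.617), a difference whose sign turned to 0.02 with library totals alone.

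Socs2, known for restraining growth hormone signaling and a STAT5 target, lies on chromosome 10 (95383903 to 95417321). Its FPKM was 47.3, 47.5 and 46.2 with anti-CD3 alone, 47.4, 29.6 and 32.9 with L. acidophilus, 92.1, 73.1 and 99.5 with FK506, and 40.0, 40.4 and 42.4 with the combination. All FK506 libraries were above all others, so Socs2 was the inhibitor that rose with FK506, by 0.79 on the log2 scale (SE 0.18, adjusted p = 0.00974, edgeR). The combination was lower than FK506 by -1.11 (SE 0.18, adjusted p = 0.00172) and did not pass against anti-CD3 at -0.32 (SE 0.18, adjusted p = 0.159). Still, every combination library was below every anti-CD3 library. FK506 was also the group with the highest summed B-cell markers, at 245 to 488 FPKM against 27.7 to 166 elsewhere, and their part in the Socs2 level was not tested.

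**Figure D2:**
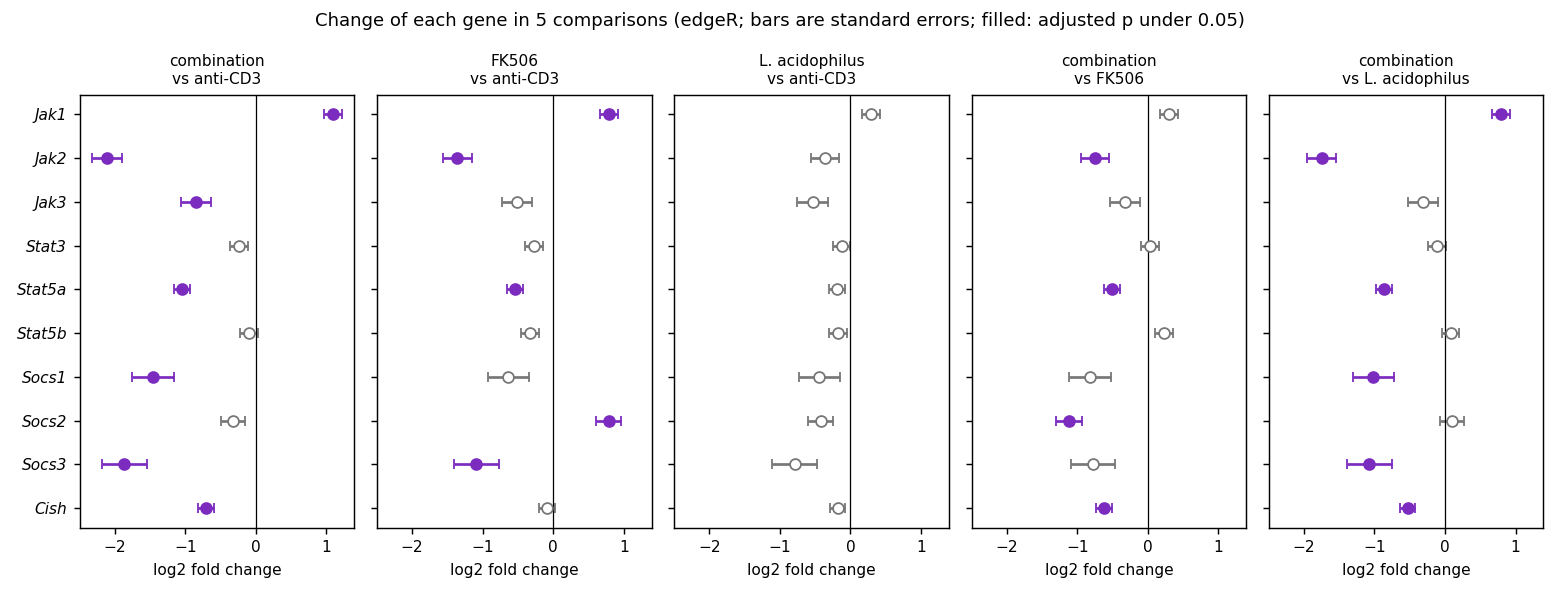
Log2 fold change of each gene (horizontal axis; bars are ± 1 standard error) in 5 comparisons fitted together in edgeR, with filled symbols for an adjusted p under 0.05. Jak1 lies to the right in each panel, Jak2 and Stat5a to the left, and no symbol is filled for L. acidophilus against anti-CD3.

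Counted by comparison, FK506 alone moved 5 of the 10 genes against anti-CD3, with Jak1 and Socs2 higher and Jak2, Stat5a and Socs3 lower, where 19.0% of all genes and 26.1% of those with a mean of at least 10 FPKM passed. This count rested on single libraries and on the scale. It was 8 without anti-CD3 replicate 2, when Jak3, Stat3 and Stat5b also passed, and 4 when Socs3 was lost. The share of all genes was 14.1% without anti-CD3 replicate 2, and 10.7% to 18% in the fits that lost Socs3.

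L. acidophilus alone moved 0 of the 10 against anti-CD3 by edgeR, and likewise 0 by DESeq2 and by limma. By the adjusted p, 0.229% of all genes and 0.219% of the better expressed genes passed. That share of all genes ranged from 0.00428% without L. acidophilus replicate 2 to 1.67% without anti-CD3 replicate 3 when 1 library was left out. It was 4.75% with DESeq2, and 0 genes passed in edgeR when just the libraries compared were fitted (2616 at an unadjusted p under 0.05). At an unadjusted p under 0.05 there were 4 members (Jak1 higher; Jak3, Socs2 and Socs3 lower), where 14.8% of all genes reached that level. The members' log2 fold changes ran from -0.79 for Socs3 to 0.29 for Jak1.

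Adding L. acidophilus to FK506 lowered 4 of the 10 (Jak2, Stat5a, Socs2 and Cish) and raised none, against 19.1% of all genes and 33.0% of the better expressed genes. Without Jak2, whose call depended on single libraries, 3 were left. DESeq2 called 6, with Jak1 higher (0.33, adjusted p = 0.0357) and Socs1 lower (adjusted p = 0.0297) as well, and replicates 2 and 3 only also gave 6, with Socs1 and Socs3 lower as well. Of all genes, 24.6% passed there with DESeq2 and 18.6% with replicates 2 and 3 only. Adding FK506 to L. acidophilus moved 6 of the 10, with Jak1 higher by 0.80 (SE 0.13, adjusted p = 0.000605, edgeR) and Jak2, Stat5a, Socs1, Socs3 and Cish lower, against 33.6% of all genes and 52.0% of the better expressed ones. In that comparison Socs1 and Socs3 (-1.07, SE 0.32, adjusted p = 0.0217) were lost without L. acidophilus replicate 2 or 3, or without combination replicate 2 or 3, leaving 4. These comparisons share libraries and are not independent of each other.

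A further contrast of all 4 groups tested whether the log2 change with both agents was more or less than both single changes added together. By edgeR 0 of the 10 passed, likewise 0 by DESeq2 and by limma, where 4.35% of all genes passed by edgeR, and of the 6380 better expressed genes 114 were higher and 460 lower than the sum. The share of all genes went from 1.42% without L. acidophilus replicate 2 to 6.25% without anti-CD3 replicate 2, and was 10.1% with DESeq2. At an unadjusted p under 0.05 there were 3 members, where 19.6% of all genes reached that level. Those 3 were Cish at -0.44 (SE 0.15, adjusted p = 0.132), Socs2 at -0.69 (SE 0.25, adjusted p = 0.147) and Stat5b at 0.40 (SE 0.18, adjusted p = 0.238). For Jak1 the departure was 0.01 with an SE of 0.18, and for Jak2 it was -0.39 with an SE of 0.28.

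The scaling of the libraries bears on the small changes. With library totals alone in place of TMM factors, which centre the libraries on genes that change little, the median of all genes in the combination against anti-CD3 moved from 0.02 to 0.23. On quantile-normalized log2(FPKM + 1), Jak3 (-0.35, adjusted p = 0.268, limma) and Cish (-0.21, adjusted p = 0.167, limma) no longer passed, and Stat3 (0.22) and Stat5b (0.27) turned positive. A pseudocount of 1 understates changes of low genes, and with 0.1 Jak3 and Cish were again at -0.35 and -0.21. Jak1, Jak2, Stat5a, Socs1 and Socs3 passed in the same direction under each of the 4 scalings plotted. With the pseudocount of 1, FK506 against anti-CD3 lost Stat5a and Socs3 (adjusted p = 0.0992 for Socs3, limma). The combination against FK506 lost Jak2 (adjusted p = 0.222, limma) and Stat5a and gained Jak1 as higher, and the combination against L. acidophilus lost Cish.

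**Figure D3:**
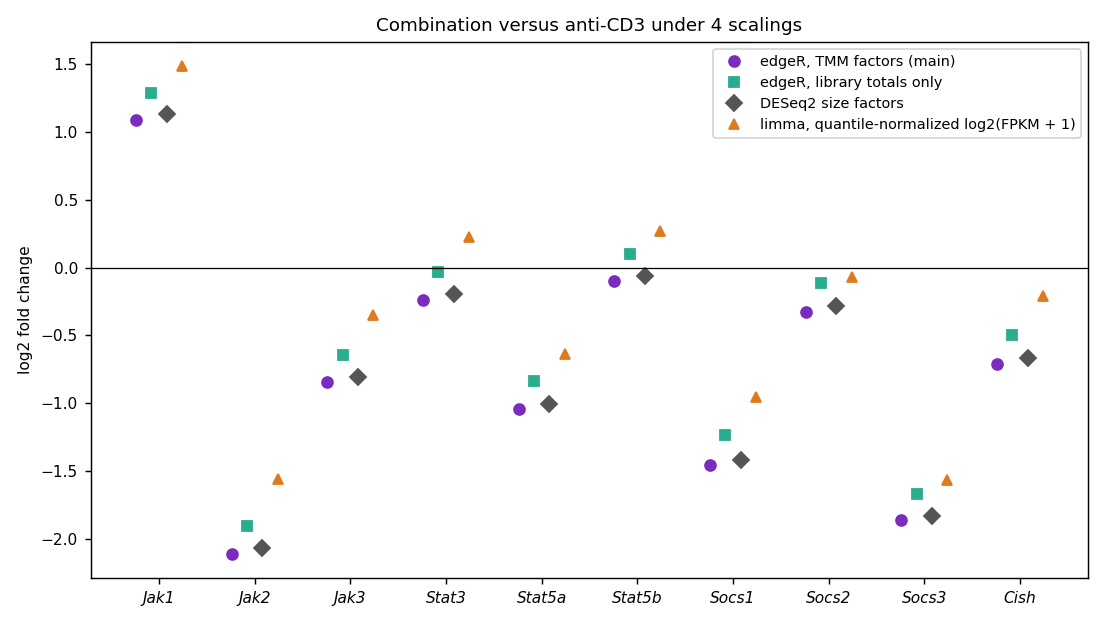
Log2 fold change of the combination against anti-CD3 (vertical axis) for each gene under 4 scalings. Jak1 stays above 0 and Jak2, Jak3, Stat5a, Socs1, Socs2, Socs3 and Cish stay below 0, while Stat3 and Stat5b lie on both sides.

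Ratios of genes within a library do not depend on a single scale factor for that library, though quantile normalization can change them. They were computed from the FPKM after the single values had been seen. Jak2 over Jak1 was 5.80 to 5.97 in the anti-CD3 libraries and 2.51 to 4.47 in those with L. acidophilus. FK506 libraries had 0.994 to 1.76 and combination libraries 0.566 to 0.709. The 4 groups did not overlap, and the combination's ratio was 9.03-fold below that of anti-CD3. Jak2 held 62.5% ± 5.31 (SD, n = 3) of the summed FPKM of the 3 kinases with anti-CD3 and 28.1% ± 2.45 (SD, n = 3) with the combination. The kinases' sum was 425 ± 80.3 and 256 ± 16.4 FPKM in these groups. With 3 libraries against 3, the exact two-sided permutation test cannot go below p = 0.1, the value reached here (0.15 after Benjamini-Hochberg adjustment over 15 tests).

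Stat5a over Stat5b was 1.51 to 1.73 in the anti-CD3 libraries and 1.37 to 1.76 in those with L. acidophilus. FK506 libraries had 1.24 to 1.58 and combination libraries 0.799 to 0.892. In each of the 9 libraries outside the combination Stat5a was the higher of the pair, and in the 3 combination libraries Stat5b was (exact permutation p = 0.1, the smallest possible). Socs2 over Socs3 was 0.605 to 1.05 with anti-CD3 and 0.753 to 1.5 with L. acidophilus, against 2.49 to 3.59 with FK506 and 1.36 to 3.10 with the combination. The last pair of groups overlapped each other, and both stood above anti-CD3 (exact permutation p = 0.1). The summed FPKM of the 4 inhibitors was 393 to 502 in anti-CD3 libraries and 223 to 279.6 in combination libraries, and that of the 3 STAT genes was 212 to 283 and 205 to 209.

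**Figure D4:**
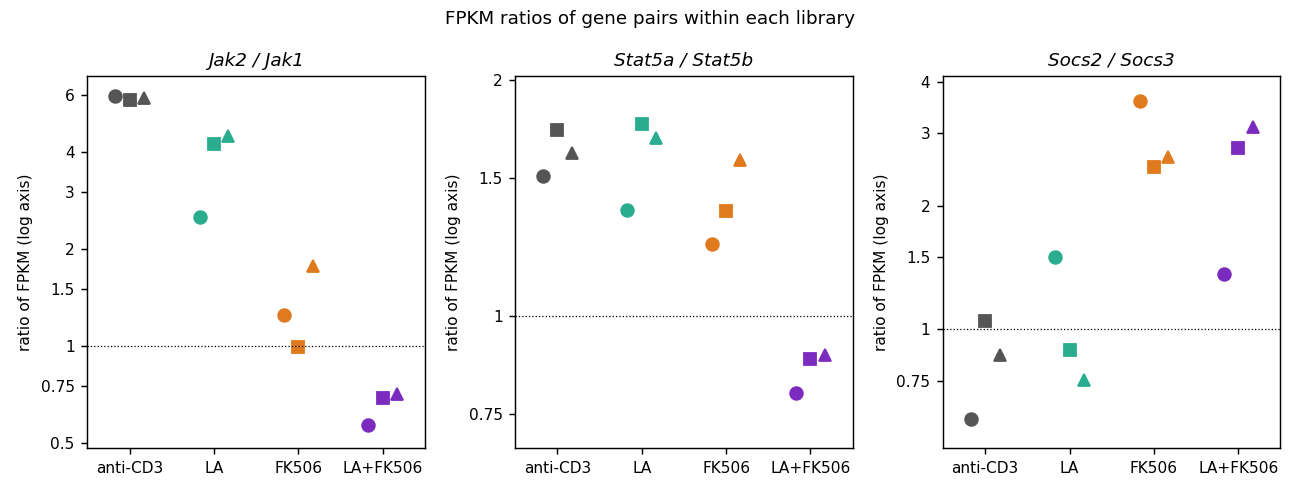
FPKM ratio of 3 gene pairs (vertical log axes) in each library by group, with circles, squares and triangles for replicates 1, 2 and 3 and a dotted line at 1. Jak2 over Jak1 goes from about 5.89 with anti-CD3 to 0.655 with LA+FK506, and Stat5a over Stat5b lies under 1 in the 3 LA+FK506 libraries alone.

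In order of level with anti-CD3 alone, Jak2 (265 ± 46.8 FPKM, SD, n = 3) stood above Cish (165 ± 2.43), Socs1 (160 ± 71.1) and Jak3 (116 ± 42.5), and Jak1 came last at 44.9 ± 7.62. The libraries of Jak2 did not overlap those of Cish, the next gene, and Stat3 did not overlap Stat5b below it, while every other neighbouring pair overlapped. In the combination the order began with Cish (117 ± 5.85) and Jak1 (110.4 ± 10.9), whose libraries overlapped, followed by Stat3 (89.4 ± 3.54), and ended with Socs2 (40.9 ± 1.27) and Socs3 (19.2 ± 8.82). Jak2 stood there at 71.8 ± 1.88, just below Jak3 at 74.2 ± 7.41, with overlapping libraries.

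The other genes of the pathway were taken from 6 lists, whose medians are to be read beside 0.02 over all genes tested and -0.26 over the better expressed ones. Their counts are to be read beside the 43.3% of all genes and 62.5% of the better expressed ones that passed, of which last 1214 were higher and 2773 lower. Of the 5 other JAK and STAT genes, 2 rose and 1 fell in the combination against anti-CD3 (median log2 fold change 0.39). Stat2, a factor of type I interferon signaling, was the one that fell (-0.66, SE 0.17, adjusted p = 0.00775, edgeR), a call lost with limma (highest adjusted p = 0.0953). Of the 4 other SOCS genes 3 rose and none fell (median 0.41), led by Socs5 (0.83, SE 0.14, adjusted p = 0.000688). Of 12 other negative regulators, 3 rose and 4 fell. Sh2b3, an adaptor that restrains JAK2, rose by 0.96 (SE 0.20, adjusted p = 0.00216), and Ptpn1, a phosphatase that acts on JAK2 and TYK2, fell by 0.73 on the log2 scale (SE 0.11, adjusted p = 0.000291).

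Among 22 receptor chains, 9 rose and 6 fell (median 0.32). Il23r, the IL-23 receptor chain that pairs with JAK2, rose by 4.65 (SE 0.55, adjusted p = 5.63e-05, edgeR) from a level of 0.14 ± 0.0473 FPKM (SD, n = 3) with anti-CD3 to a mean of 4.17, the group through which it met the minimum mean of 1 FPKM for being named. The size depended on the scale, at 2.01 on log2(FPKM + 1) and 3.81 on log2(FPKM + 0.1). Il12rb2, the IL-12 receptor chain that pairs with JAK2, fell by 4.13 on the log2 scale (SE 0.38, adjusted p = 1.35e-05), from 52.2 ± 15.3 to 2.65 ± 0.359 FPKM. Among 16 ligands, 3 rose and 10 fell (median -3.35, the same with Il9 at its bound). Il9, a T-cell cytokine, had between 1054 and 1620 counts in the anti-CD3 libraries and 0 in each combination library. It was thus at least 463-fold lower, with 3 counts per library as the floor.

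Of 15 known target genes of STAT factors, 3 rose and 9 fell (median -0.74). Bcl6, a transcriptional repressor that STAT3 and STAT5 regulate in opposite directions, rose the most (2.16, SE 0.21, adjusted p = 1.89e-05, edgeR), and by edgeR it was the single gene of the 72 tested in these lists that passed with L. acidophilus alone (1.27, SE 0.21, adjusted p = 0.0367). This last call held in 4 of 12 fits with 1 library left out and was lost without any one of the L. acidophilus libraries, anti-CD3 replicate 1 or 2, FK506 replicate 2, or combination replicate 2 or 3 (highest adjusted p = 0.137, edgeR). It was also lost when just the libraries compared were fitted (adjusted p = 0.165, edgeR) and with replicates 2 and 3 only (adjusted p = 0.16, edgeR). DESeq2 also called Stat2 (-0.59, adjusted p = 0.0269), Il12rb2 (-1.05, adjusted p = 0.034) and Ptpn1 (-0.36, adjusted p = 0.043) among the list genes named here. Myc, the growth regulator, fell the most (-2.07, SE 0.16, adjusted p = 7.65e-06), from 92.0 ± 2.38 to 25.2 ± 2.91 FPKM (SD, n = 3). A pair of genes stand on 2 lists each.

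**Figure D5:**
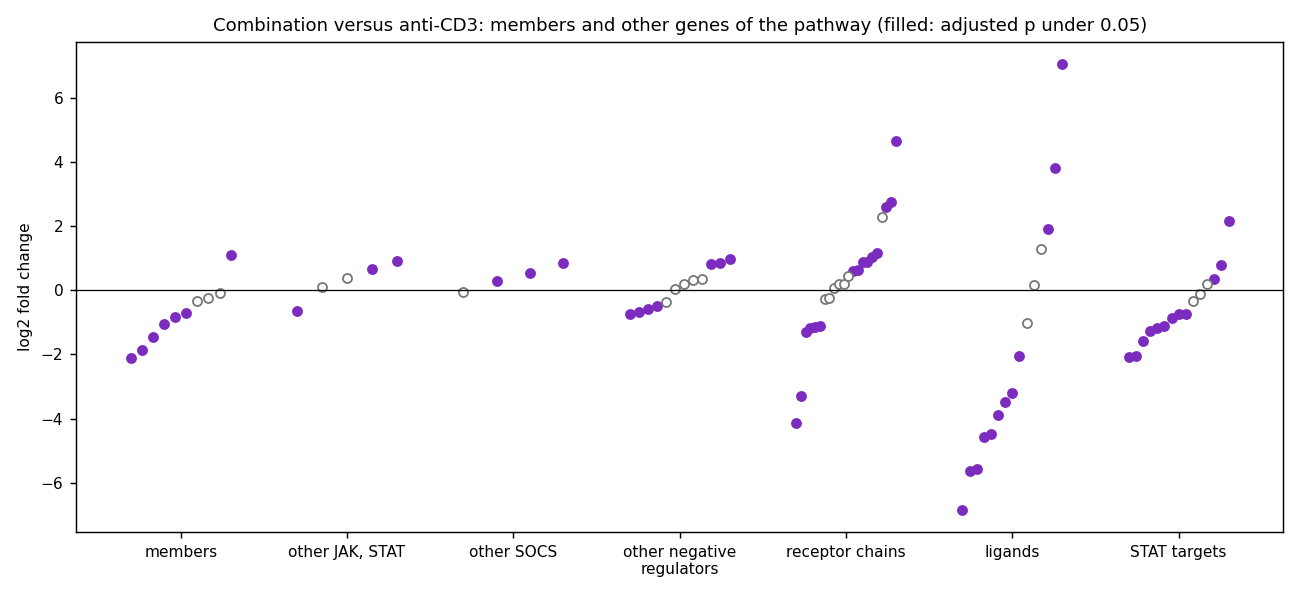
Log2 fold change of the combination against anti-CD3 (vertical axis) for the 10 members and for the genes of 6 pathway lists, each gene a circle and filled at an adjusted p under 0.05 in edgeR; Il9 is left out because it had 0 counts in each combination library. The ligands spread the widest, 10 of 16 passed as lower with Il9 counted, and the highest point is Il7, whose height depends on the prior count because it had 0 counts with anti-CD3 alone.

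For the 3 members whose group means ranged the most (Jak2, Socs3, Socs1), the genes with the most similar pattern over the 12 libraries were sought among 12221 genes, by Pearson's r of log2 counts scaled to library size. The nearest to Jak2 were Fam210a (0.99), Lrfn1 (0.99) and Sema4f (0.98). The nearest to Socs3 were Timm44 (0.97), Bcl3 (0.96) and Gpr146 (0.96), and the nearest to Socs1 were Glrx5 (0.99), Lipt2 (0.98) and Znrd2 (0.98). Among the members, Jak2 was closest to Stat5a (r = 0.97) and ran opposite to Jak1 (r = -0.92), while Stat5b and Socs1 were unrelated (r = -0.01). These r values describe 12 libraries in 4 groups, which share group, depth and scaling, and carry no test.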

How the data were processed

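The authors deposited 1 table with, per gene and library, a read count, an FPKM and a TPM value, named by NCBI gene identifier. The deposited counts are whole numbers without normalization and may be rounded estimates. The FPKM values were deposited scaled to transcript length and library size, and the deposited TPM values were not used. The submitters' processing notes list bcl2fastq 2.20.0, Trimmomatic, HISAT2 2.1.0, StringTie 2.1.3b and the mm10 build. The methods name quantile normalization, which the FPKM do not show. Overlapping genes are given little signal (Raver2 in Jak1, 0.244 FPKM; Insl3 in Jak3, 3.02 FPKM).

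Counts of 23585 genes above 0 in at least 3 libraries were fitted with edgeR 4.0.16 (quasi-likelihood test, TMM factors, 12 libraries, 1 mean per group) in R 4.3.3, with Benjamini-Hochberg adjustment over all genes and a threshold of 0.05. Standard errors are the log2 fold change over the square root of F. Alternatives were DESeq2 1.42.0, and limma 3.58.1 on quantile-normalized log2(FPKM + 1) or with a pseudocount of 0.1. In edgeR they were no TMM, no filter, its filterByExpr filter, just the libraries compared, a replicate block, replicates 2 and 3 only, and each library left out. A 2-fold cut-off was applied to the main fit. The scripts were tested on simulated counts. The members, lists and tests were chosen with earlier results of these data known. The ratios and the background of genes with a mean FPKM of at least 10 were chosen after the values were seen. Besides the members, the text names of each list the largest rise and fall that passed in the combination against anti-CD3 (mean FPKM at least 1), and 3 genes most correlated with each of the 3 members of largest range. Raver2 and Insl3 were named for their positions, and Il7 and Stat4 after their values were seen. One gene that this rule would name is not reported here.

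Same-numbered libraries deviated together in every pair (r above 0.1) for L. acidophilus against anti-CD3 (0.195 to 0.471) and the combination against L. acidophilus (0.107 to 0.201), a pairing that comes from the data, not from the labels. The block changed no member's call in these comparisons. Replicates differed by more than counting noise (a chi-square over its degrees of freedom of at least 4.61 in each pair), but unequally. Replicates 2 and 3 were closest in the combination (4.61) and with L. acidophilus (9.57), and all other pairs lay between 47.7 and 205.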

Additional observations from a re-analysis of the deposited data

Results flagged for a closer look

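The effect of L. acidophilus differed between cultures with and without FK506 for 2 of the pathway genes named above, by the contrast of all 4 groups in edgeR. In all, 8 of the 72 genes of the pathway lists passed this contrast, 1 higher and 7 lower, where 4.35% of all genes passed, and 114 higher and 460 lower of the 6380 better expressed ones. The one higher was Stat4 (1.19, SE 0.27, adjusted p = 0.0302, edgeR), named after its value was seen. For Myc the difference was -1.29 on the log2 scale (SE 0.22, adjusted p = 0.0107). For Il9 the fitted difference was -13.53 (SE 1.33, adjusted p = 0.00447), a size that depends on the prior count because the combination libraries had 0 counts. Against the floor of 3 counts per library, Il9 in the combination lay at least 522-fold below FK506 and at least 447-fold below L. acidophilus.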

How the results depend on the processing

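None of the 22 calls of single members reversed under any alternative. With 1 library left out, 15 of 264 values of these calls no longer passed. Under the other alternatives, the 2-fold cut-off not counted, it was 14 of 198, all in the limma fits. Of the 38 differences that had not passed, 7 of 456 values passed with 1 library left out and 9 of 332 under the other alternatives. With a 2-fold cut-off, 5 members passed for the combination against anti-CD3, 2 members passed for FK506 against anti-CD3, 1 for the combination against FK506 and 3 for the combination against L. acidophilus. Of the 23585 genes tested, 5797, 2491, 1754 and 3910 passed with that cut-off, in the same order. The limma fits gave 3 for FK506 against anti-CD3 with either pseudocount, where 17.7% (pseudocount 1) and 18.9% (0.1) of all genes passed. With single libraries left out, the members passing were 7 to 8 (combination against anti-CD3), 4 to 8 (FK506 against anti-CD3), 3 to 5 (combination against FK506) and 4 to 6 (combination against L. acidophilus). In those fits 36.6% to 43.8%, 10.7% to 20.3%, 10% to 23.6% and 25.5% to 37.8% of all genes passed, in the same order. The replicate block gave 7, 6, 0, 4, 6 and 0 in the order of the comparisons above. The matching shares of all genes were 44.4%, 20.7%, 0.428%, 22.1%, 35.7% and 6.69%. The 6 for FK506 against anti-CD3 included Jak3 (adjusted p = 0.0488, edgeR). For that comparison, the combination against anti-CD3 and the combination against FK506, same-numbered libraries did not all deviate together (lowest r -0.11, -0.0702 and 0.0529). Even so, 10 of the 12 libraries deviated most like a library of their own number in another group.

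Differences that had not passed turned sign as follows, and the cause was not tested. With library totals alone, Stat5b became 0.10 (combination against anti-CD3), Cish 0.025 (FK506 against anti-CD3) and Stat3 0.022 (combination against L. acidophilus). With limma at pseudocounts 1 and 0.1, Stat3 became 0.22 and 0.23 and Stat5b 0.27 and 0.27 (combination against anti-CD3), Cish 0.16 and 0.16 (FK506 against anti-CD3), Stat3 0.030 and 0.031 (L. acidophilus against anti-CD3) and 0.19 and 0.20 (combination against L. acidophilus), and Socs3 -0.13 and -0.15 (departure). With replicates 2 and 3 only, Cish became 0.0025 (FK506 against anti-CD3), Stat3 0.058 (L. acidophilus against anti-CD3), Stat5b -0.011 (combination against L. acidophilus), and the departures of Jak1, Jak3 and Socs3 became -0.15, -0.10 and -1.01. The departure of Jak1 became -0.00083 without a filter, and that of Socs3 -0.11 with the block. With single libraries left out, Stat5b ranged from -0.21 to 0.042 (combination against anti-CD3) and from -0.028 to 0.13 (combination against L. acidophilus), Socs2 there from -0.039 to 0.35, Cish from -0.15 to 0.0014 (FK506 against anti-CD3), Stat3 from -0.25 to 0.025 and Socs1 from -0.64 to 0.013 (L. acidophilus against anti-CD3), Stat3 from -0.016 to 0.052 (combination against FK506), and the departures of Jak1 from -0.093 to 0.11, Jak3 from -0.14 to 0.40 and Socs3 from -0.45 to 0.23. The lowest count of a member was 2109 (Socs3), and the part of depth was not tested.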
